A study of Mus musculus with 16 samples.

Results

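The genes described here are 34 genes of the integrated stress response and of mitochondrial protein quality control, out of 18194 genes with a probe set of 1 symbol on the array. They were chosen by name, with earlier results of these data known. The brightest probe set of each, by mean log2(intensity + 16) over the 16 arrays, stands for the gene. A stress response class of 24 genes holds 12 regulators and targets of the transcription factor ATF4 and 12 genes of amino acid and one-carbon metabolism. A mitochondrial class of 10 genes holds 3 chaperones of the matrix and 7 proteases or scaffold proteins.

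RNA was measured in sorted bone marrow cells of C57Bl6 mice, all labelled female, and each group consists of arrays labelled as biological replicates. Mutator hematopoietic stem cells (HSC) came from mice of 32 weeks labelled Polgtm1Lrsn-/- (n = 3), and WT HSC from mice of 32 weeks labelled Polgtm1Lrsn+/+ (n = 3). The mutator allele encodes a mitochondrial DNA polymerase without proofreading and is carried by every cell of the mouse, so the stem cells and their marrow surroundings both carry it. Old HSC (n = 3, 24 months) and Young HSC (n = 3, 9 to 12 weeks) came from wild-type mice. Ly6D+ and Ly6D- common lymphoid progenitors (CLP, n = 2 each), which give rise to lymphocytes, came from wild-type mice of 8 to 12 weeks. Whether an array holds 1 mouse or a pool is not given in the sources used here, so p-values measure the spread between these samples. The series compares middle-aged mutator and wild-type stem cells with young and old wild-type ones, and so sets the effect of the allele beside that of age.

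The integrated stress response is a brake on protein synthesis. Kinases that sense amino acid shortage, misfolded protein, viral RNA or mitochondrial damage phosphorylate the initiation factor eIF2, most translation slows, and translation of the Atf4 mRNA rises. ATF4 then pairs with C/EBP proteins on DNA and switches on amino acid synthesis, amino acid transport, serine and folate enzymes and, in prolonged stress, Ddit3 (CHOP). In cultured cells and in muscle with faulty mitochondrial DNA this programme has been reported repeatedly, together with chaperones and proteases that refold or destroy protein in the mitochondrial matrix. Since ATF4 is controlled at translation, the level of Atf4 mRNA is not a measure of its activity, which is read from its targets.

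ATF4 and its C/EBP partners bind a composite element whose core can be written TGATGNAA, where N is any base. It was searched on both strands in RefSeq promoter windows of 300 bases, 250 before and 50 after each transcript start (GRCm38.p6). Of 22 stress response genes with a window, 8 held the motif (Asns, Atf3, Chac1, Nupr1, Pck2, Slc7a11, Trib3 and Vldlr), and of 8 mitochondrial genes with a window 0 did. Among all genes with a window, 1219 of 27025, or 4.51%, held it, and 3.97% of all 32851 windows. A match is a description of letters, and no match says only that these letters are not in this window. The windows of Nupr1, Trib3 and Asns are shown as 3 of the 4 motif holders that were brighter on every Old than on every Young HSC array (the other is Vldlr, with the motif in 1 of 2 windows), those of Ddit3 and Hspe1 as windows without the motif. Capitals mark the motif or its reverse complement, and each window runs 5′ to 3′ on the strand of its gene.
Nupr1 (chr7:126625421-126625720, minus strand, motif on the opposite strand): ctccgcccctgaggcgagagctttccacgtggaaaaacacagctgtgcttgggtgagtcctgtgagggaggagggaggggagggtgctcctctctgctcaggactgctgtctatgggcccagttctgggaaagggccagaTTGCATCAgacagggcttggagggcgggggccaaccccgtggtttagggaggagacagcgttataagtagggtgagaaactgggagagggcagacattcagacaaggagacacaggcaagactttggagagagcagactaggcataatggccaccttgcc
Trib3 (chr2:152344011-152344310, minus strand, motif on the opposite strand, after the start): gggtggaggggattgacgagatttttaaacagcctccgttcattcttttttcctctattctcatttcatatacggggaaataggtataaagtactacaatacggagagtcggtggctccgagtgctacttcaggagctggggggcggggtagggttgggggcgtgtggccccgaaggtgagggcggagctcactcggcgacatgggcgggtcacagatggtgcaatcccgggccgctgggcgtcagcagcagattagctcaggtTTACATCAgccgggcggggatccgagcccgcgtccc
Asns (chr6:7693160-7693459, minus strand): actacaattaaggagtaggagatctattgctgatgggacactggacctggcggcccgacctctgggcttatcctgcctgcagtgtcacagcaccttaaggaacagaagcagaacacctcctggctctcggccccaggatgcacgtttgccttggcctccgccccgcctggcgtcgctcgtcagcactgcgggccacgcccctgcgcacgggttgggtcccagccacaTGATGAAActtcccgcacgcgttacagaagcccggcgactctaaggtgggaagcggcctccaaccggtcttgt
Ddit3 (chr10:127290543-127290842, plus strand): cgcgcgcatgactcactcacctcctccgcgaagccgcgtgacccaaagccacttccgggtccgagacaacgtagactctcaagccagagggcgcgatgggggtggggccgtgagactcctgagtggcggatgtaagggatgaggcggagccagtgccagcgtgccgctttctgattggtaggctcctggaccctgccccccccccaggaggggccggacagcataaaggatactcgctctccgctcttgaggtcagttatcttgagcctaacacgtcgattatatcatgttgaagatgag
Hspe1 (chr1:55087898-55088197, plus strand): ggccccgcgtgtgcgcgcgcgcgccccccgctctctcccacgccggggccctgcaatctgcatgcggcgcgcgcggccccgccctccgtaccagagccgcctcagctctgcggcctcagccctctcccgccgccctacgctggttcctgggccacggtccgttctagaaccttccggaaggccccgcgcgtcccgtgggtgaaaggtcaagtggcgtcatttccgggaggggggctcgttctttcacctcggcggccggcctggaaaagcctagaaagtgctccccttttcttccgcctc
The Hspe1 window shares 285 of its bases with a window of Hspd1 on the opposite strand (chr1:55087883-55088182). From that Hspd1 start, the genes of HSP10 and HSP60 share 1 promoter region and point away from each other. The window of another Hspd1 start (chr1:55088194-55088493) shares 4 bases with the Hspe1 window, and the statement does not cover it. The motif lies 110 bases before the start in Nupr1, 23 bases before it in Asns and 14 bases after it in Trib3.

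Several facts about the arrays touch the results below. The log2 ratio of 3′ to 5′ actin signal, a sign of RNA shortened at its 5′ end, was 4.24 to 5.26 on the 6 arrays of 32-week mice, 2.20 to 2.61 on the 6 arrays of Old and Young HSC and 2.11 to 3.85 on the CLP arrays. WT HSC replicate 3 and all 4 CLP arrays carried Xist at 9.12 to 16.8 and the Y-linked Eif2s3y at 423 to 758, against 3507 to 11022 and 6.85 to 12.7 on the other 11 arrays, although all are labelled female. Mutator replicate 1 and WT replicate 1 carried hybridisation controls (BioB_3) at 1810 to 2162, against 263 to 511 on the other 10 HSC arrays. Summed HSC markers (Slamf1, Procr, Kit, Hlf, Mecom, Hoxb5, Meis1 and Gata2) were 1093 to 2008 on CLP arrays and 9025 to 23158 on HSC arrays, and summed CLP markers (Il7r, Flt3, Ly6d, Rag1, Rag2 and Dntt) were 16571 to 23150.1 on CLP arrays and 131 to 344 on HSC arrays. The mutator allele changes the protein and not the presence of the transcript, so Polg does not check the labels: its intensity was 65.9, 125 and 110 in Mutator HSC, against 113, 163 and 153 in WT HSC. In such bulk samples fewer cells of a type and less RNA per cell cannot be told apart.

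Of the 34 genes 33 passed the filter on dim genes and were tested. The exception was Slc7a11, the cystine transporter, at 7.74 to 16.5 on the 16 arrays, where the 40th percentile of an array lay between 16.6 and 21.3. Atf3 and Aldh1l2 passed through only 3 of the 12 HSC arrays, so their values lie near background.

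In Mutator HSC against WT HSC, neither the ATF4 targets nor the mitochondrial chaperones and proteases held a gene that passed the test. None of the 33 tested genes passed an adjusted p of 0.05 in limma, and neither did any other gene (0 of 13482, or 0%). At an unadjusted p under 0.05 there were 4 of the 33 genes (Hspa9, Clpp, Cebpg and Aldh1l2) and 984 of all genes, or 7.3%. The stress response class had 11 positive and 12 negative differences with a median log2 difference of -0.0056, and the mitochondrial class 6 positive and 4 negative with a median of 0.20, beside a median of -0.0041 over all genes tested. Arrays of the 2 groups did not overlap for 3 of the 33 genes (9.09%), Hspa9 and Cebpg higher and Clpp lower in Mutator HSC, against 6.07% of all genes (3.11% higher and 2.97% lower).

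The stress transcription factors Atf4 and Ddit3 had overlapping arrays in mutator and wild-type stem cells. Atf4 intensity was 2226, 3707 and 1693 in Mutator HSC, against 2383, 2289 and 2052 in WT HSC, a log2 difference of 0.11 ± 0.31 (SE) with a 95% interval of -0.57 to 0.78. The mutator arrays lie on both sides of the WT arrays. Ddit3, the pro-apoptotic factor CHOP, was at 166, 101 and 106 in Mutator HSC and 123, 87.7 and 147 in WT HSC, a difference of 0.049 ± 0.20 (interval -0.39 to 0.49). Intervals of this width do not show that the levels were equal.

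Cebpg, which encodes the partner with which ATF4 binds DNA, was at 476, 448 and 415 in Mutator HSC, against 225, 393 and 317 in WT HSC. Every mutator array was brighter than every WT array, with a log2 difference of 0.53 ± 0.20 and an adjusted p of 0.623. Without WT replicate 3 the difference was 0.56, and without the 2 arrays of high hybridisation controls it was 0.28. Vldlr, a lipoprotein receptor induced by ATF4 in stressed cells, was at 1156, 623 and 1129.6 in Mutator HSC and 310.3, 654 and 938 in WT HSC, where the groups overlap (0.68 ± 0.38, adjusted p = 0.761). Its difference was 0.25 without WT replicate 1 and turned to -0.13 with array weights. Trib3, a pseudokinase that feeds back on ATF4, gave 1027, 641 and 606 in Mutator HSC and 675, 537 and 622 in WT HSC (0.27 ± 0.20).

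Ppp1r15a (GADD34), which brings in the phosphatase that releases the brake on eIF2, was at 344, 1066 and 956 in Mutator HSC and 879.8, 1243 and 1085 in WT HSC. The low value is that of the mutator array with high hybridisation controls, and the difference of -0.57 ± 0.46 had an adjusted p of 0.866. Nupr1, a small stress-induced chromatin protein, was at 232, 220.5 and 333 in Mutator HSC and 299, 235 and 411 in WT HSC, a difference of -0.24 ± 0.22. Of the other regulators, Atf5 and Sesn2 (a sestrin that restrains mTORC1) differed by 0.076 ± 0.18 and 0.22 ± 0.15. Chac1, which degrades glutathione, and Ddit4 (REDD1, an inhibitor of mTORC1) differed by -0.057 ± 0.15 and -0.49 ± 0.61, and Atf3 by -0.0056 ± 0.36. None of these 5 had an adjusted p below 0.824.

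Amino acid and one-carbon genes, the targets most often read as ATF4 output, had 0 genes past the test: 4 differences were positive and 7 negative, with a median of -0.12, and 0 of 11 had groups that did not overlap. Asns, which makes asparagine from aspartate, was at 122, 159 and 300.4 in Mutator HSC, against 212, 296 and 226 in WT HSC (-0.39 ± 0.26, adjusted p = 0.81). Phgdh, the entry enzyme of serine synthesis, was at 1333, 1117 and 1292 in Mutator HSC, against 1169, 1534 and 2014 in WT HSC (-0.30 ± 0.19, adjusted p = 0.794). The highest WT value of Phgdh is that of WT replicate 3, and without it the difference was -0.11. The other steps of serine synthesis, Psat1 and Psph, differed by 0.21 ± 0.17 and -0.12 ± 0.28. Shmt2 and Mthfd2, which pass the carbon of serine to folate inside mitochondria, differed by -0.28 ± 0.23 and 0.21 ± 0.20.

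Aldh1l2, a mitochondrial folate enzyme, was at 29.1, 16.8 and 33.4 in Mutator HSC and 16.7, 15.1 and 16.9 in WT HSC. Mutator replicates 1 and 3 stand above the rest and replicate 2 does not, at intensities near background (0.37 ± 0.16, adjusted p = 0.662). The proline synthesis enzyme Aldh18a1 and the mitochondrial carboxykinase Pck2 differed by -0.28 ± 0.27 and -0.16 ± 0.31. The amino acid transporter Slc7a5 (LAT1) and its partner chain Slc3a2 (CD98) differed by -0.027 ± 0.23 and 0.015 ± 0.39.

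**Figure D1:**
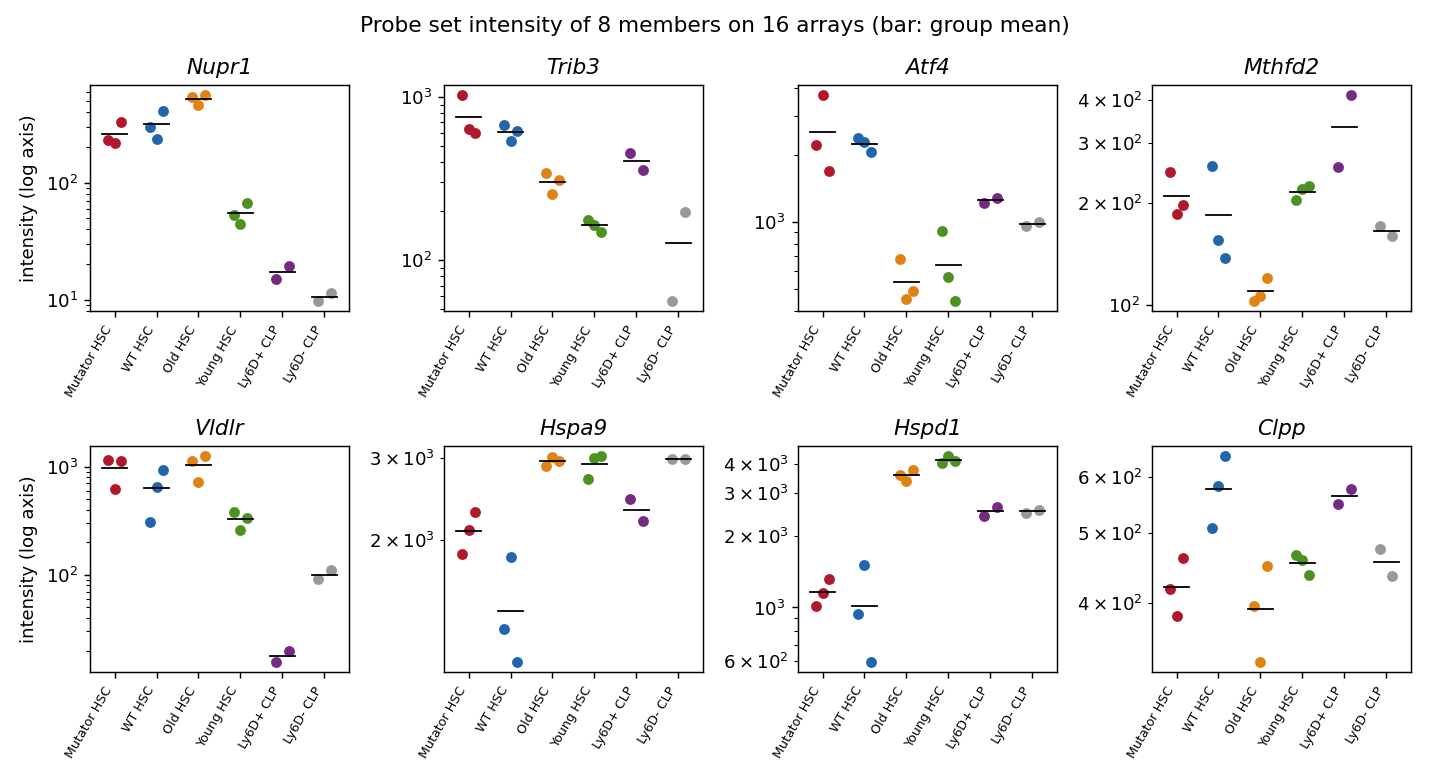
Probe set intensity (log axis) of 8 genes on each of the 16 arrays, by group, with a bar at the group mean. Nupr1 was at 466 to 559 in Old HSC, against 44.6 to 67.6 in Young HSC, while Atf4, Trib3 and Hspd1 separated the arrays of 32-week mice from those of Old and Young HSC.

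The 3 mitochondrial chaperones had positive differences, none past the test. Hspa9 (mortalin), the HSP70 of the matrix that pulls proteins in and folds them, was at 1875, 2107 and 2303 in Mutator HSC, against 1295, 1839.6 and 1103 in WT HSC. The groups did not overlap, and the log2 difference of 0.59 ± 0.18 had an unadjusted p of 0.00679 and an adjusted p of 0.602. The nearest WT array was replicate 2, and without it the difference was 0.80 ± 0.15, adjusted p = 0.0313, the 1 gene of the 33 called in a fit that called 222 genes, or 1.65% (1.55% higher). The 3′ to 5′ actin ratio of WT replicate 2 was 4.24, the lowest of the 6 arrays of 32-week mice, against 4.74 to 5.25 in Mutator HSC and 4.90 and 5.26 in the other WT arrays, and its part in the result was not tested.

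Hspd1 (HSP60) was at 1017, 1151 and 1311 in Mutator HSC, against 940.02, 1507 and 594 in WT HSC (0.28 ± 0.26). Its partner Hspe1 (HSP10) was at 622, 681 and 816 in Mutator HSC, against 710.1, 796 and 401 in WT HSC (0.20 ± 0.23). In both genes WT replicate 3 is the lowest of the 6 arrays and WT replicate 2 the highest of the WT arrays. Without WT replicate 3, which also goes against its labelled sex, the differences were -0.045 for Hspd1, -0.10 for Hspe1 and 0.43 for Hspa9, so the shared direction rests on that array. Of 4 measured probe sets of Hspa9, 3 were positive (0.59, 0.32 and 0.24) and the dimmest was at -0.087.

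Among the proteases, Clpp, the proteolytic subunit of the matrix protease ClpXP, was at 418, 384 and 462 in Mutator HSC, against 509, 582 and 641 in WT HSC. All mutator arrays were dimmer than all WT arrays (-0.44 ± 0.15, adjusted p = 0.607), with -0.36 without WT replicate 3 and -0.089 for a second probe set. Its unfoldase Clpx was at 36.8, 68.8 and 132 in Mutator HSC and 34.6, 97.7 and 48.0 in WT HSC (0.28 ± 0.36). Lonp1, the other soluble protease of the matrix, was at 144, 179 and 241 in Mutator HSC and 209, 242 and 154 in WT HSC, which overlap (-0.10 ± 0.21). The inner membrane proteases differed by 0.43 ± 0.21 (Afg3l2, adjusted p = 0.701), 0.19 ± 0.22 (Yme1l1) and -0.11 ± 0.22 (Spg7), and the scaffold prohibitin Phb2 by -0.15 ± 0.18. Afg3l2 was at 298, 224 and 208 in Mutator HSC and 118, 226 and 195 in WT HSC, with the lowest value on WT replicate 1.

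Markers of other cells overlapped in their sums for neutrophils and macrophages. Summed neutrophil markers were 466 to 5306 in Mutator HSC and 496 to 6457 in WT HSC, summed macrophage markers were 211 to 249 in Mutator HSC and 136 to 226 in WT HSC (6 of 6 positive), and summed HSC markers were 11440.0 to 12733 in Mutator HSC and 9025 to 11948 in WT HSC (7 of 8 positive). No marker passed the test, and their part in the values above was not tested.

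The wider pathway gave the same count: in 7 further lists 0 genes passed in Mutator HSC against WT HSC. Among 8 eIF2 kinases and relay genes the smallest p was that of Eif2ak3 (PERK, the sensor of the endoplasmic reticulum) at 0.52 ± 0.19, followed by Eif2b5 at 0.59 ± 0.41. Among 16 other ATF4 targets it was Jdp2 at -0.76 ± 0.34 and Xpot at 0.87 ± 0.40. Among 15 chaperones and related genes of the endoplasmic reticulum, Hspa5 (BiP) differed by 0.86 ± 0.35 and Dnajc3 by 0.62 ± 0.31. Among 12 cytosolic aminoacyl-tRNA synthetases, Mars1 differed by 0.22 ± 0.17 and Wars by -0.31 ± 0.27, and among 7 other folate genes Aldh1l1 by -0.64 ± 0.35 and Ahcy by 0.36 ± 0.28. Among 16 genes listed for mitochondrial import and quality, Parl differed by 0.70 ± 0.35 and Timm44 by -0.33 ± 0.20. Among 8 cytosolic heat shock genes, Hsph1 differed by 0.34 ± 0.21 and Dnaja1 by 0.46 ± 0.28. The smallest adjusted p among these genes was 0.62.

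**Figure D2:**
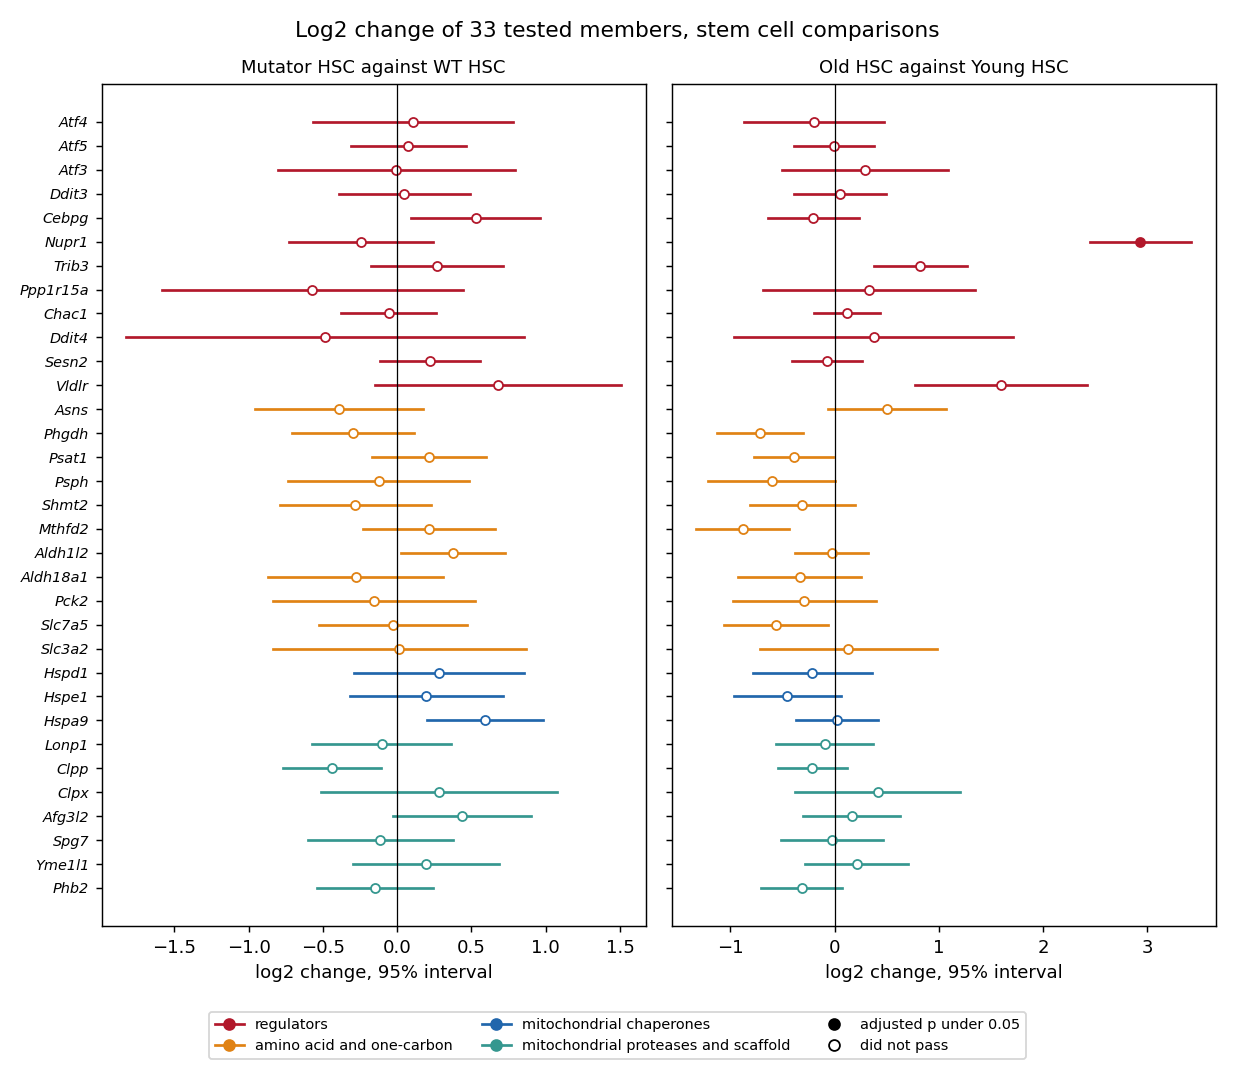
Log2 change with its 95% interval for the 33 tested genes, in Mutator HSC against WT HSC (left) and in Old HSC against Young HSC (right), with filled points for an adjusted p under 0.05 and colours for the 4 gene groups. The 1 filled point is Nupr1 in Old HSC against Young HSC, at 2.93.

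In Old HSC against Young HSC a single gene of the 33 passed, beside 176 of 13482 genes, or 1.31% (1.05% higher and 0.252% lower). An unadjusted p under 0.05 was reached by 7 of the 33 genes and by 9.03% of all genes. Nupr1 rose to 544, 466 and 559 in Old HSC, against 52.8, 44.6 and 67.6 in Young HSC, a log2 change of 2.93 ± 0.22 with an adjusted p of 5.42e-05 in limma. The lowest Old array was several times brighter than the highest Young array. A second probe set of Nupr1 gave 2.69, and the call held on leaving out each of the 6 arrays in turn (2.82 to 3.06).

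The other regulators with groups that did not overlap were both brighter on every Old array without passing. Trib3 was at 343, 256 and 310.02 in Old HSC, against 175, 165 and 149.8 in Young HSC (0.82 ± 0.20, adjusted p = 0.0883). Vldlr was at 1124, 723 and 1256 in Old HSC, against 384, 261 and 333 in Young HSC (1.60 ± 0.38, adjusted p = 0.0723), and all 5 of its measured probe sets were positive, up to 1.95. Atf4 and Ddit3 themselves differed by -0.20 ± 0.31 and 0.049 ± 0.20, with overlapping arrays. Of the 12 regulators 8 had positive and 4 negative differences, with a median of 0.21.

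The amino acid and one-carbon genes showed 2 directions. Asns was at 472, 401 and 392 in Old HSC, against 277, 300.01 and 298 in Young HSC (0.50 ± 0.26, adjusted p = 0.671), every Old array above every Young array. The serine and mitochondrial folate enzymes lay the other way. Mthfd2 was at 103, 106 and 119.7 in Old HSC, against 203, 219 and 224 in Young HSC (-0.88 ± 0.20, adjusted p = 0.0636), and its second probe set gave -1.41. Phgdh was at 1021, 829 and 856 in Old HSC, against 1525, 1499.8 and 1441 in Young HSC (-0.72 ± 0.19, adjusted p = 0.116), with all 4 of its probe sets negative.

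Psat1 was at 1093, 1183 and 1151 in Old HSC, against 1478, 1484 and 1556 in Young HSC (-0.39 ± 0.17). Psph, the last step of serine synthesis, was at 167, 167 and 166 in Old HSC, against 244, 264 and 277 in Young HSC (-0.60 ± 0.28). Shmt2 was at 346, 300.1 and 296 in Old HSC, against 402, 373 and 401 in Young HSC (-0.31 ± 0.23). All 5 enzymes from Phgdh to Mthfd2 were dimmer on every Old array than on every Young array, and Pck2 likewise. In all, the groups did not overlap for 12 of the 33 genes (36.4%), 4 higher and 8 lower, against 27.2% of all genes tested (14% higher and 13.2% lower), and for 7 of the 11 amino acid and one-carbon genes.

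How many of these pass depends on the spread that the fit assumes. The median SD of the 33 tested genes between arrays of a group, on the log2 scale, was 0.14 in Old HSC and 0.092 in Young HSC. It was 0.26 in Mutator HSC and 0.38 in WT HSC, and the fit of all 12 HSC arrays shares 1 spread. With Old and Young HSC fitted alone, 8 of the 33 genes passed, beside 994 genes or 7.37%, 4 higher (4.71% of all genes) and 4 lower (2.66%). They were Nupr1, Trib3 (0.82 ± 0.13, adjusted p = 0.00871), Vldlr (1.60 ± 0.22, adjusted p = 0.00583) and Asns (0.50 ± 0.10, adjusted p = 0.028) upward. Downward they were Mthfd2 (-0.88 ± 0.10, adjusted p = 0.00218), Phgdh (-0.72 ± 0.11, adjusted p = 0.00804), Psph (-0.60 ± 0.091, adjusted p = 0.00819) and Psat1 (-0.39 ± 0.088, adjusted p = 0.0373). The same 8 passed with array weights. Of the 7 tested genes that hold the TGATGNAA motif in a promoter window, the 4 higher ones passed here and 3 did not. With SE from the fit of all 12 HSC arrays, these 3 were Atf3 (0.29 ± 0.36) and Chac1 (0.12 ± 0.15), with overlapping arrays, and Pck2 (-0.29 ± 0.31), dimmer on every Old array. The genes were sorted by their call, so this is a tally and not a test.

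The mitochondrial class had no gene past the test between Old and Young HSC in either fit. Hspd1 was at 3569, 3372 and 3761 in Old HSC, against 4006, 4304 and 4097 in Young HSC (-0.21 ± 0.26), and Hspe1 at 1045, 856 and 1077 in Old HSC, against 1561, 1305 and 1236 in Young HSC (-0.46 ± 0.23), both without overlap. Hspa9 was at 2882, 3013 and 2952 in Old HSC and 2699, 2993 and 3029 in Young HSC, a difference of 0.022 ± 0.18 with an interval of -0.37 to 0.42. The 7 proteases and scaffold genes differed by -0.32 to 0.41, all with overlapping arrays.

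Markers of other cells differed between the same samples. Summed neutrophil markers were 171 to 1555 in Old HSC and 1320 to 5718 in Young HSC, with 8 of 8 differences negative and 0 past the test. Summed macrophage markers were 127 to 148 in Old HSC and 234 to 640.0 in Young HSC, with 6 of 6 negative and 1 past the test (Vcam1), and summed erythroid markers were 77.0 to 107 in Old HSC and 149 to 227 in Young HSC. Differences of HSC markers were positive for 8 of 8 genes, 3 past the test. Their part in the values of the serine and folate enzymes was not tested.

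In the 7 further lists 0 genes passed between Old and Young HSC. The directions were negative for 5 of 7 other folate genes, with Shmt1 at -0.61 ± 0.16 (adjusted p = 0.119) and Mthfd1 at -0.50 ± 0.14 (adjusted p = 0.16). They were negative for 11 of 12 aminoacyl-tRNA synthetases and 14 of 16 mitochondrial import and quality genes. The same held for 10 of 15 chaperones and related genes of the endoplasmic reticulum, where 48.2% of all genes tested were positive. The chaperone nearest to the threshold was Sdf2l1 at -0.81 ± 0.18 (adjusted p = 0.0532). Differences were also mostly negative among the other ATF4 targets, the eIF2 kinases and relay genes and the cytosolic heat shock genes. Of the other ATF4 targets, those with the smallest p were Cebpb at 0.67 ± 0.34 and Jdp2 at -0.66 ± 0.34.

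The 2 effects, the mutator genotype at 32 weeks and age in wild-type mice, were set against each other as 1 contrast that takes the second log2 change from the first. The contrast passed for 69 of 13482 genes (0.512%, with 0.0519% positive and 0.46% negative, and 7.74% at an unadjusted p under 0.05, against 6 of the 33) and for 1 of the 33 genes, Nupr1, at -3.18 ± 0.31 with an adjusted p of 0.00108. Nupr1 thus differed by -0.24 between Mutator and WT HSC and by 2.93 between Old and Young HSC. The next genes by p were Mthfd2 at 1.10 ± 0.29 (adjusted p = 0.188), Cebpg at 0.73 ± 0.28 (adjusted p = 0.524), Psat1 at 0.61 ± 0.25 and Asns at -0.90 ± 0.36. For Mthfd2 the contrast passed without WT replicate 1, at 1.35 ± 0.19, adjusted p = 0.00917. For the chaperones the contrast was 0.50 ± 0.37 (Hspd1), 0.65 ± 0.33 (Hspe1) and 0.57 ± 0.25 (Hspa9), with none past the test.

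The level of Nupr1 across the HSC groups gives that contrast a context. Both groups of 32 weeks, at 221 to 333 in Mutator HSC and 235 to 411 in WT HSC, lay below all Old arrays (466 to 559) and above all Young arrays (44.6 to 67.6). In WT HSC of 32 weeks against Young HSC Nupr1 rose by 2.20 ± 0.22 (adjusted p = 0.000193), and a second probe set gave 2.07. The 3 ages in wild-type mice, Young, WT at 32 weeks and Old, thus had means of 55.0 ± 11.6, 315 ± 88.9 and 523 ± 50.1 (SD, n = 3 each), though the arrays at 32 weeks also differ in their actin ratio.

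WT HSC against Young HSC asks what differs between wild-type stem cells of 32 weeks and of 9 to 12 weeks, and here age cannot be told apart from the array set and its RNA quality. Of the 33 genes 15 passed, 6 higher and 9 lower, beside 3258 of 13482 genes or 24.2% (6.42% higher and 17.7% lower). Groups did not overlap for 18 of the 33 genes (54.5%), against 38.3% of all genes (12.9% higher and 25.4% lower), and 16 of the 33 had an unadjusted p under 0.05, against 36.3% of all genes. The regulators held 4 of the genes that rose: Ppp1r15a (2.49 ± 0.46, adjusted p = 0.00326), Nupr1, Atf4 (1.84 ± 0.31, adjusted p = 0.00199) and Trib3 (1.80 ± 0.20, adjusted p = 0.000308). Ppp1r15a was at 879.8, 1243 and 1085 in WT HSC, against 239.6, 129 and 172 in Young HSC. Atf4 was at 2383, 2289 and 2052 in WT HSC, against 912, 565 and 443 in Young HSC, and in both genes no WT array overlapped a Young one.

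The other genes that rose were Shmt2 (0.85 ± 0.23), at 525, 641 and 1107 in WT HSC, against 402, 373 and 401 in Young HSC, and Phb2 (1.10 ± 0.18), at 3005, 2735 and 3426 in WT HSC, against 1745, 1205 and 1326 in Young HSC. The call of Shmt2 was lost without Young replicate 1, 2 or 3, with the 2 groups fitted alone (adjusted p = 0.079) and with Young 2 and 3 counted as 1 (adjusted p = 0.0628). Cebpg fell to 225, 393 and 317 in WT HSC, against 839, 1213 and 1066 in Young HSC (-1.70 ± 0.20). Psph (-1.28 ± 0.28) and Slc7a5 (-1.99 ± 0.23) also fell, with Slc7a5 at 51.3, 52.6 and 69.5 in WT HSC, against 347, 233 and 258 in Young HSC. Psph was at 105, 128 and 68.9 in WT HSC, with values for Young HSC as above.

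The mitochondrial class lay mostly lower, with 6 of 10 genes past the test downward, 1 upward and a median of -1.10, beside a median of -0.037 over all genes. Hspd1 fell by 2.11 ± 0.26 on the log2 scale (adjusted p = 0.000444), Hspe1 by 1.14 ± 0.23 and Hspa9 by 1.06 ± 0.18. Every array of 32 weeks, Mutator or WT, was dimmer for Hspd1, Hspe1 and Hspa9 than every Young array. Lonp1 (-1.54 ± 0.21), Clpx (-1.90 ± 0.36) and Yme1l1 (-1.37 ± 0.22) fell too. Lonp1 was at 209, 242 and 154 in WT HSC, against 741, 581 and 524 in Young HSC, and Clpx at 34.6, 97.7 and 48.0 in WT HSC, against 269, 201 and 296 in Young HSC. Yme1l1 was at 94.5, 143 and 104 in WT HSC, against 348, 325 and 279 in Young HSC, again without overlap.

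Genes of the wider pathway passed mostly downward in the same arrays, as did all genes tested (17.7% lower and 6.42% higher). The list counts below stand beside these shares, and no list was tested as a set. Of 15 chaperones and related genes of the endoplasmic reticulum 9 passed downward and 1 upward, Xbp1 (0.87 ± 0.19), which is not a chaperone. Those lower included the disulfide isomerases Pdia3 (-2.92 ± 0.45) and Pdia6 (-2.47 ± 0.33) and the HSP90 of that compartment, Hsp90b1 (-2.13 ± 0.36). Downward calls numbered 5 of 12 aminoacyl-tRNA synthetases, 4 of 8 cytosolic heat shock genes, 5 of 16 genes listed for mitochondrial import and quality, 4 of 8 eIF2 kinases and relay genes and 2 of 7 other folate genes, with 0 upward in these lists. The import and quality count includes Lonrf1 (-1.22 ± 0.27), which was listed by name, and a mitochondrial role of it is not shown here. Of 16 other ATF4 targets 4 passed downward, with Gadd45a at -2.40 ± 0.22, and 1 upward, the translation repressor Eif4ebp1 at 1.46 ± 0.19. Markers differed too: summed HSC markers were 9025 to 11948 in WT HSC and 15011 to 16886 in Young HSC. Kit (-1.69 ± 0.33), Meis1 (-1.01 ± 0.23) and Mecom (-0.80 ± 0.22) passed the test. Hoxb5, Gata2 and Hlf were lower without passing, and Slamf1 (0.40 ± 0.20) and Procr (0.058 ± 0.15) lay the other way, also without passing. Summed macrophage markers were 136 to 226 in WT HSC and 234 to 640.0 in Young HSC, with Vcam1 at -2.65 ± 0.45 past the test. The part of these in the values of the 33 genes was not tested.

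Probe sets of 1 gene often went opposite ways in this comparison. Of 21 genes with 2 or more measured probe sets, 14 had probe sets of opposite sign in WT HSC against Young HSC, against 8 in Mutator HSC against WT HSC and 4 in Old HSC against Young HSC. The brightest probe set of Atf4 gave 1.84 and another -0.29, at 591, 890.4 and 517 in WT HSC and 961, 744 and 703 in Young HSC. For Clpp the 2 probe sets gave 0.33 and -1.08, and for Hspe1 -1.14 and 0.049. Signs also differed between measured probe sets of Cebpg, Clpx, Yme1l1 and Phb2, which passed the test. All 4 measured probe sets of Hspa9 were negative, and both of Nupr1, both of Trib3 and all 4 of Shmt2 were positive. When the probe sets of each gene were averaged, the calls of Atf4, Clpx, Hspe1, Phb2 and Shmt2 were lost.

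**Figure D3:**
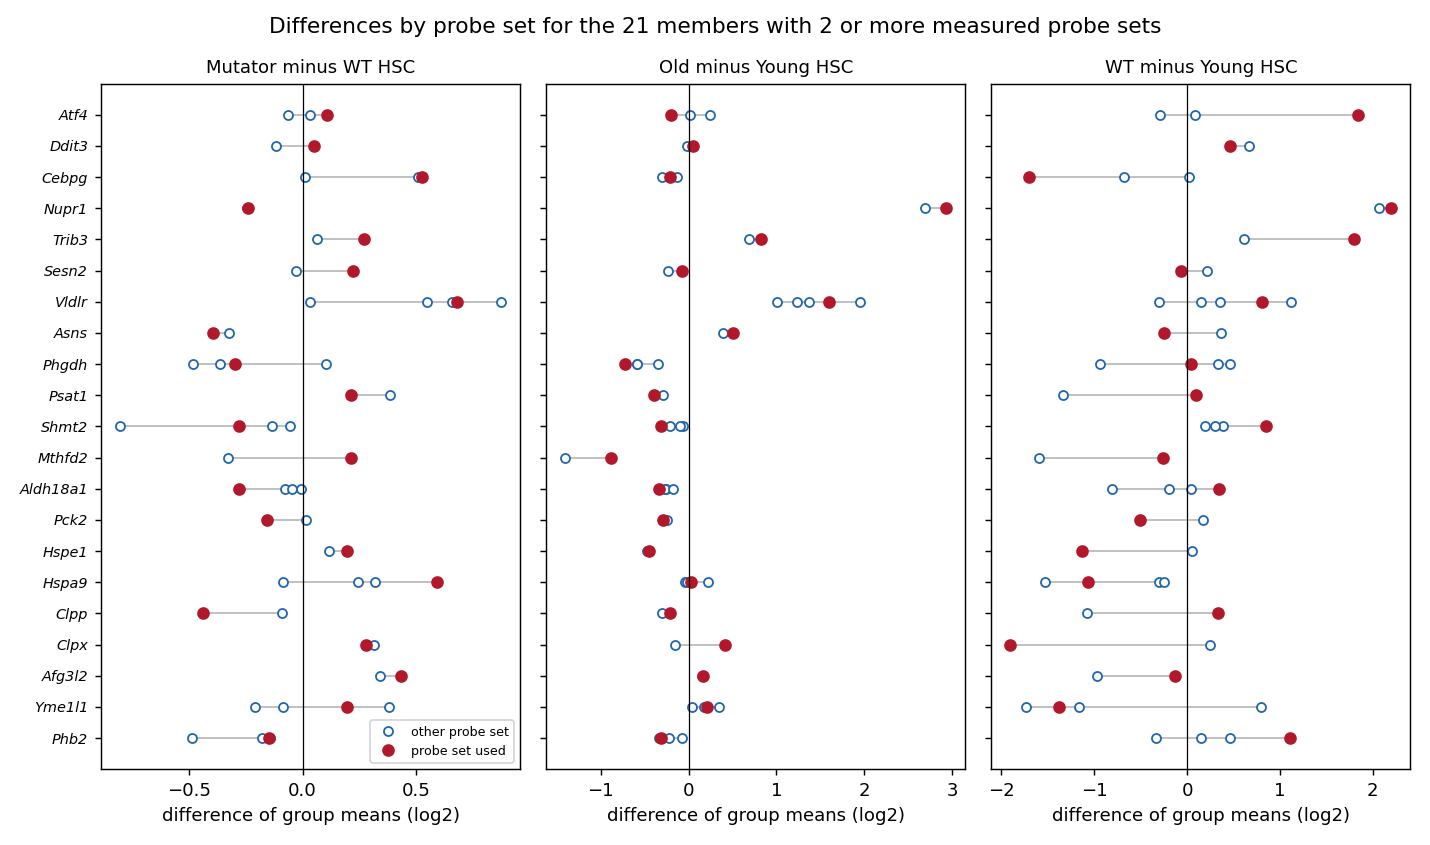
Difference of group means (log2) for each probe set of the 21 genes with 2 or more measured probe sets, in 3 comparisons, with the probe set used filled. Signs differed between probe sets for 8 genes in Mutator minus WT HSC, 4 in Old minus Young HSC and 14 in WT minus Young HSC.

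**Figure D4:**
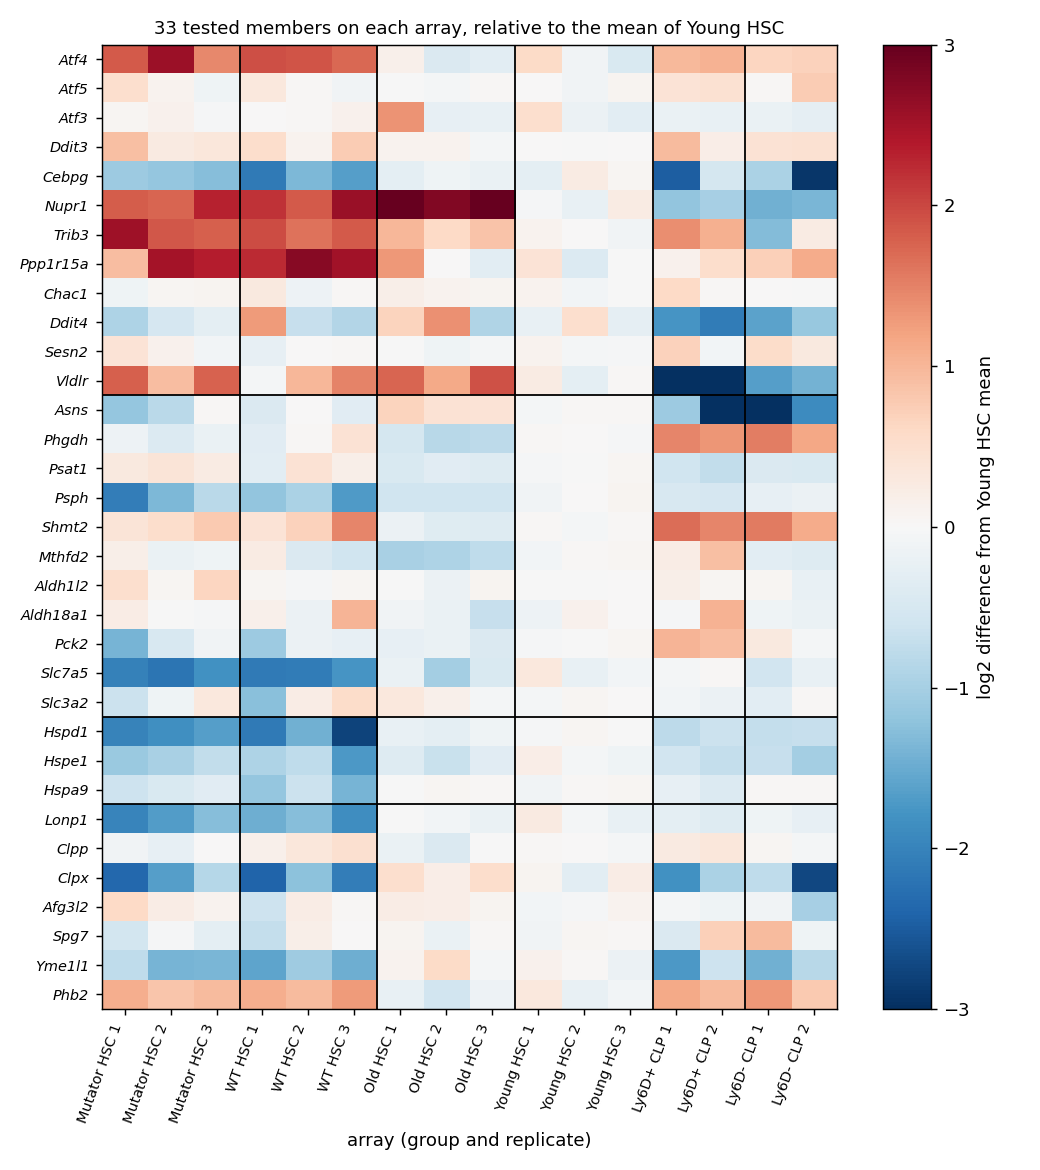
Log2 difference of each array from the mean of Young HSC for the 33 tested genes (rows, in the order regulators, amino acid and one-carbon genes, chaperones, proteases and scaffold) on the 16 arrays (columns). Mutator and WT HSC share most of their colours, with Hspd1, Lonp1 and Slc7a5 low on all 6 arrays and Ppp1r15a high, least so on Mutator replicate 1.

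Between lymphoid progenitors and Young HSC, genes of the programme passed the test in both directions. In Ly6D- CLP against Young HSC 10 of the 33 genes passed, 3 higher and 7 lower, beside 3503 of 14344 genes or 24.4% (9.55% higher and 14.9% lower), and groups did not overlap for 20 of the 33 genes (60.6%), against 57.6% of all genes (26.6% higher and 31% lower). An unadjusted p under 0.05 was reached by 12 of the 33 genes and by 35.5% of all genes. The CLP arrays also differ from the HSC arrays in Xist and Eif2s3y and in the hybridisation controls, and cell type cannot be told apart from these. Most neutrophil markers were brighter on Ly6D- replicate 2 than on replicate 1, such as S100a8 (1371 against 16.1) and Ngp (1121 against 41.5). Elane was at 37.6 against 29.0, and Mpo lay the other way, at 3335 against 4402. The part of these in the calls was not tested.

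Phgdh, the entry enzyme of serine synthesis, and Shmt2, of mitochondrial folate, were brighter in Ly6D- CLP, while Mthfd2 differed by -0.35 ± 0.24. The later serine enzymes Psat1 (-0.44 ± 0.18, adjusted p = 0.0962) and Psph (-0.20 ± 0.29) did not pass the test. Both were dimmer on every Ly6D- array than on every Young array. Phgdh rose to 4370.3 and 3341 in Ly6D- CLP, against 1525, 1499.8 and 1441 in Young HSC (1.35 ± 0.21, adjusted p = 0.000458). Shmt2 rose to 1195 and 872 in Ly6D- CLP, against 402, 373 and 401 in Young HSC (1.35 ± 0.26, adjusted p = 0.00205), with all 4 probe sets positive. Phb2 rose by 1.05 ± 0.21 (adjusted p = 0.00288), at 3519 and 2427 in Ly6D- CLP. Asns lay the other way: it fell to 18.01 and 67.6 in Ly6D- CLP, against 277, 300.01 and 298 in Young HSC (-2.53 ± 0.51, adjusted p = 0.00322), and a second probe set gave -2.41.

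Nupr1 fell to 9.78 and 11.3 in Ly6D- CLP (-1.41 ± 0.23, adjusted p = 0.000822), below the 40th percentile of those arrays, so the size of the change depends on the added 16. Vldlr fell to 91.0 and 110.1 in Ly6D- CLP (-1.54 ± 0.40, adjusted p = 0.0127), a call lost without Ly6D- replicate 1 and with the probe sets averaged (-0.71). Cebpg (-1.94 ± 0.54), Clpx (-1.75 ± 0.54), Yme1l1 (-1.14 ± 0.32) and Hspe1 (-0.85 ± 0.25) also passed downward, and each call was lost on leaving out 1 array. These were Young 2 or Ly6D- 2 for Cebpg, Young 1, Young 3 or Ly6D- 2 for Clpx, Young 1, Young 2 or Ly6D- 1 for Yme1l1, and Young 1, Young 2 or Ly6D- 2 for Hspe1. The 2 Ly6D- arrays of Cebpg were 524 and 121, those of Clpx 141 and 24.4, those of Yme1l1 106 and 171 and those of Hspe1 842 and 669. With the probe sets averaged the calls of Cebpg (-0.71), Clpx (-0.58) and Hspe1 were lost, those of Cebpg and Clpx also with the 2 groups fitted alone or Young 2 and 3 as 1, and that of Hspe1 also under quantile normalization or array weights. For Hspe1 a second probe set gave 1.09, opposite in sign, and measured probe sets of Cebpg, Clpx and Yme1l1 also differed in sign. Atf4, Hspa9 and Lonp1 differed by 0.66 ± 0.32, 0.041 ± 0.19 and -0.19 ± 0.22.

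**Figure D5:**
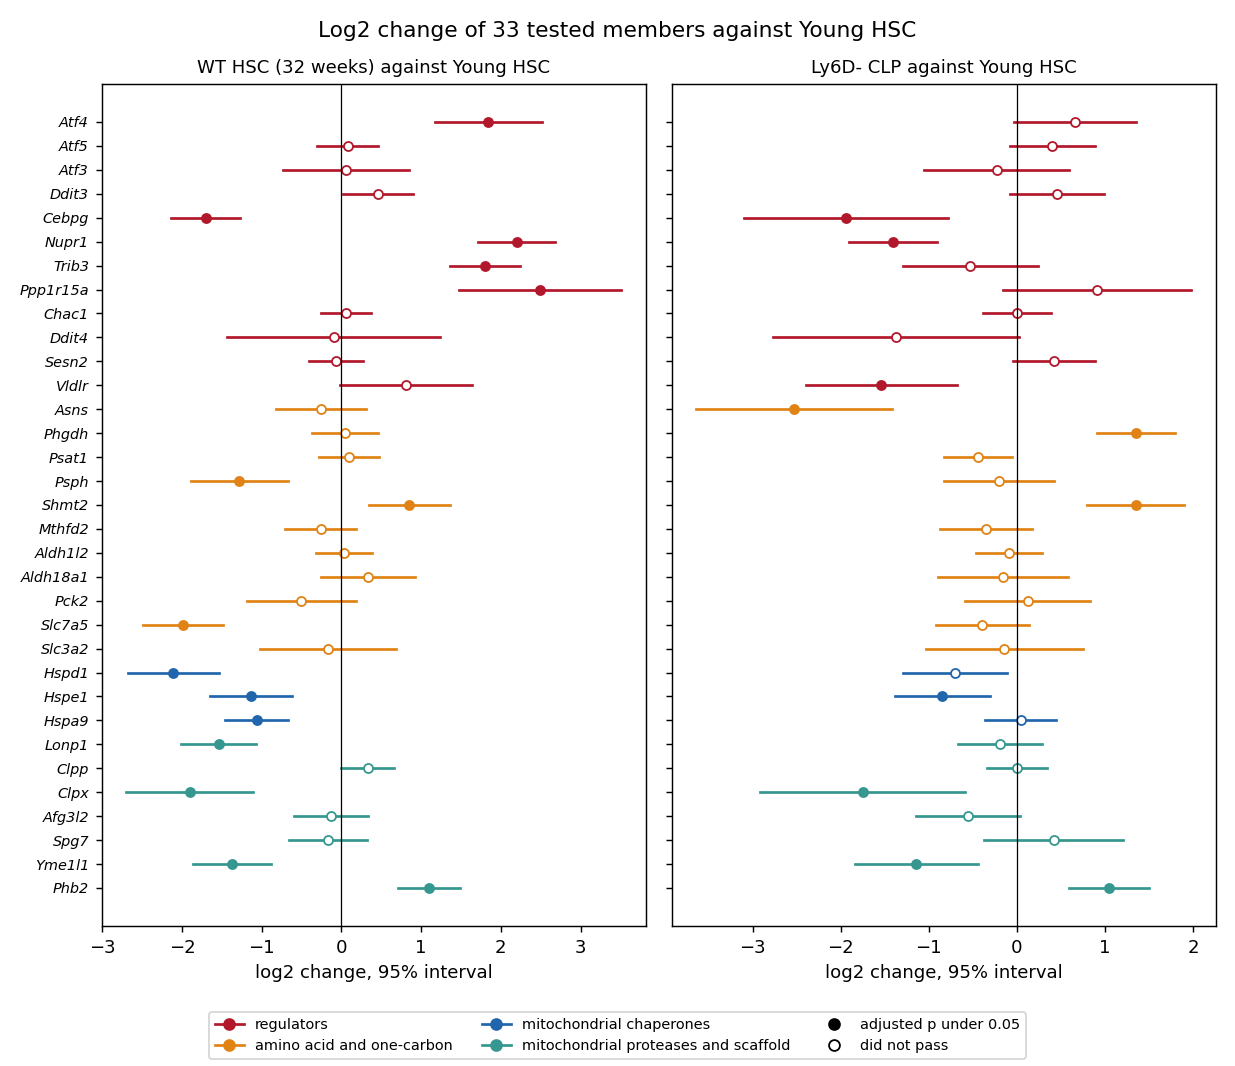
Log2 change with its 95% interval for the 33 tested genes, in WT HSC against Young HSC (left) and in Ly6D- CLP against Young HSC (right), with filled points for an adjusted p under 0.05. Both panels share the Young HSC arrays, and 15 points are filled on the left and 10 on the right.

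Ly6D marks progenitors that lean to the B lineage, and Ly6D+ CLP against Ly6D- CLP had 2 of the 33 genes past the test, beside 384 of 14344 genes or 2.68% (1.49% higher and 1.19% lower), and 4 of the 33 had an unadjusted p under 0.05, against 13% of all genes. Trib3 rose to 455 and 359 in Ly6D+ CLP, against 56.4 and 197 in Ly6D- CLP (1.76 ± 0.39, adjusted p = 0.0294). Vldlr fell to 15.8 and 19.7 in Ly6D+ CLP, against 91.0 and 110.1 in Ly6D- CLP (-1.79 ± 0.43, adjusted p = 0.0471). The Ly6D+ values of Vldlr lie near the 40th percentile of those arrays (17.9 and 17.8), so the size is uncertain: it was -2.44 with 1 added, -1.01 with 64 added and -0.60 with the probe sets averaged. The call of Trib3 was lost without Ly6D+ replicate 1, Ly6D+ replicate 2 or Ly6D- replicate 1, that of Vldlr without any 1 of the 4 arrays, and 0 genes of the array passed with the 4 CLP arrays fitted alone. Mthfd2 was at 254 and 414 in Ly6D+ CLP, against 171 and 159.8 in Ly6D- CLP (0.91 ± 0.27, adjusted p = 0.105), and Pck2 at 1356 and 1279.9 in Ly6D+ CLP, against 818 and 643 in Ly6D- CLP (0.85 ± 0.36). Groups of 2 arrays did not overlap for 16 of the 33 genes (48.5%), against 35.2% of all genes (18.9% higher and 16.3% lower).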

How the data were processed

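The authors' deposited values are summarised Affymetrix probe set intensities on a linear scale for 45101 probe sets. How probe sets were summarised and arrays normalized is not given in the sources used here. Per the labels, biotinylated cRNA was made from 4000 to 7000 cells. These values were analysed as log2(intensity + 16), which understates changes of dim genes. Probe sets with 1 symbol in GEO's platform annotation (34958, against 932 with several and 9211 with none) were kept, with 1 probe set a gene. A model of group means (limma 3.58.1, lmFit and eBayes, under R 4.3.3) was fitted to the 12 HSC arrays for HSC comparisons (13482 genes above the 40th percentile of their array on at least 3 arrays) and to all 16 arrays for comparisons with CLP (14344 genes, at least 2 arrays). P-values were Benjamini-Hochberg adjusted over all genes tested, with a threshold of 0.05, and the script was tested on simulated data. Arrays give no read depth, so their number limits precision.

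The 34 genes, their classes and the 7 further lists (86 of 95 symbols matched, the rest not analysed here) were chosen with earlier results of these data known. Intensities of every array are given for genes past the threshold in any comparison, for the 4 genes of each class with the smallest p in Mutator against WT HSC, and for Atf4, Ddit3, Asns, Hspd1 and Lonp1. From the further lists, the 2 genes with the smallest p in that comparison are given. Psat1, Mthfd2, Pck2 and list genes and markers named for Old or WT against Young HSC were added after their values were seen. Alternatives covered normalization, filter, pseudocounts of 1 and 64, probe set mean, eBayes settings, array weights, arrays fitted, blocks and leaving out each array.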

Additional observations from a re-analysis of the deposited data

Results flagged for a closer look

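Nupr1 drew attention because its change with the mutator genotype differed from its change with age, by the test of the difference itself, at -3.18 ± 0.31 on the log2 scale (adjusted p = 0.00108, limma). Its log2 difference was -0.24 ± 0.22 in Mutator HSC against WT HSC, where arrays overlap, and 2.93 ± 0.22 in Old HSC against Young HSC, where all 3 Old arrays lie above all 3 Young arrays. The contrast passed on leaving out each of the 12 arrays (-3.36 to -2.97). Single arrays were not examined as outliers, since groups hold 2 or 3.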

How the results depend on the processing

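Over the counts of genes and of the 33 tested genes past the threshold, 182 values under an alternative lay within 1.5 times the main count and 54 did not. Mutator HSC against WT HSC called 0 genes, with 1 when the hybridisation control set was a block or both arrays of high controls were left out (chosen after seeing the data), and 0 to 222 on leaving out 1 array, the 222 without WT replicate 2 and 1 without WT replicate 3. Of the 33 genes, 0 to 1 passed on leaving out 1 array. Old HSC against Young HSC called 176 genes, with 1879 under array weights, 994 with these groups alone, 93 with Young 2 and 3, the closest pair of arrays, as 1, and 88 to 114 on leaving out any 1 of its 6 arrays. Of the 33 genes, 1 passed, with 8 under array weights or these groups alone. It was 2 with the mean of all probe sets (adding Mthfd2), and with trend and robust settings or all 16 arrays fitted (adding Vldlr). The difference of effects called 69 genes, with 483 under array weights, 157 with the control set as a block, 163 without both arrays of high controls, 38 with Young 2 and 3 as 1 and 26 to 148 on leaving out 1 array. The 26 was without Old replicate 1 and the 148 without WT replicate 1, and leaving out Old 2 or 3, any Young array, Mutator 2 or WT 2 also moved it by over 1.5 times. Its 1 gene of the 33 became 3 under array weights, 2 under both control settings and 1 to 2 on leaving out 1 array. WT HSC against Young HSC called 3258 genes, with 2031 with Young 2 and 3 as 1 and 2043 to 4161 on leaving out 1 array (2043 without Young replicate 2 and 2050.0 without Young replicate 3). Ly6D+ against Ly6D- CLP called 384 genes, with 105 under array weights, 0 with these groups alone and 307 to 752 on leaving out 1 array (752 without Ly6D- replicate 1). Its 2 genes of the 33 became 1 under quantile normalization, median centring, no filter or a pseudocount of 64, 0 under array weights or these groups alone, and 0 to 1 on leaving out 1 array. Hspe1 in Ly6D- CLP against Young HSC reversed to 0.12 with the mean of all probe sets, whose second probe set has the opposite sign. Signs in Mutator HSC against WT HSC were followed for part of the 33 genes, none past the test in the main fit. Under alternatives other than leaving out 1 array, those of Psph, Lonp1, Yme1l1, Vldlr and Ddit3 turned. On leaving out 1 array, those of Psph, Lonp1, Yme1l1, Ddit3, Atf4, Shmt2, Slc7a5, Hspd1, Hspe1 and Clpx turned. For the other changes the cause was not tested.

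Deviations of same-numbered arrays correlated at 0.33, 0.077 and -0.062 in Mutator and WT HSC, and at 0.51, 0.42 and -0.012 in Old and Young HSC. Arrays of unlike number correlated at -0.44 to 0.48 in Mutator and WT HSC and at -0.55 to 0.41 in Old and Young HSC. These values do not settle whether the replicate numbers pair the samples. With the replicate block 2 of the 33 genes passed in Old HSC against Young HSC (adding Trib3) and 1 in Ly6D+ against Ly6D- CLP (losing Trib3), and in Ly6D- CLP against Young HSC the block lost the call of Clpx (adjusted p = 0.0653).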
